A study of Mus musculus with 4 samples.

Results

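Tandem duplications at well-covered sites outside simple repeats were examined in exome sequencing of mouse lung. A site was taken when at least 15 reads covered it in both the tumor and the normal library of its genotype, and when its reference allele held no homopolymer of 8 bp or more and no unit of 2 to 6 bp repeated in at least 3 copies over 12 bp or more. Of 1404 duplication records, 299 met this rule, 169 of 792 in the wild type (WT) and 130 of 612 in the mutant. They fell into 94 records in 3 pericentromeric arrays (59 WT, 35 mutant) and 205 outside them (110 WT, 95 mutant). The rule also left out 35 records in 2 densely hit windows, on chromosomes 6 and 15. The sites were thus chosen by measured read depth and by the repeat content of the reference allele, which are given only as a description.

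The 4 libraries were WT normal lung, WT lung tumor, and normal lung and lung tumor of mice with 1 WT and 1 A159V allele of FEN1, abbreviated A159V below, with 1 library in each group. Exons were captured from genomic DNA before sequencing. The treatment label, a FEN1 knock-in, was given for all 4 samples, the WT samples included. The sources give no strain, age, sex or cause of the tumors, and do not say whether tumor and normal lung came from the same animal. With 1 library per group nothing measures the spread between animals, so every interval below is an exact 95% interval that covers counting error only.

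FEN1, flap endonuclease 1, is a nuclease that cuts the 5′ flaps raised when lagging-strand synthesis displaces the primer of the preceding Okazaki fragment. Flaps that are not removed can be joined into the DNA, which leaves an extra copy of the flap's sequence as a tandem duplication. Major satellite is the AT-rich tandem repeat of mouse pericentromeres. Its copies are nearly identical, so a sequencing read from 1 copy cannot easily be assigned to a single place in the genome.

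Each record describes an insertion with the parts in a fixed order: intervening bases, then another copy of a reference segment. In all 299 records the inserted sequence ended with the segment. The sequences that carry the results are shown first, on GRCm38, 5′ to 3′ on the reference strand except where stated. At the best supported sites outside the arrays the segments, or their first 30 bases for Cmya5 and Zfp984, were as follows, with all letters in capitals.
Irak4, chr15:94563066-94563088: GAACCTCAACTACTGGTTAGTAA
Igh, chr12:114804996-114805030: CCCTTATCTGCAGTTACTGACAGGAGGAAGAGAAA
Cmya5, chr13:93096892-93096937: CAGGCGCATGCTCCTCCTCTCTGTGGACTA
Zfp984, chr4:147756200-147756236: AGACCTTCCCATACTTTCCATGTATGCAAT
Zscan18, chr7:12774607-12774628: TGGCTGGGTTCCTCCTGTTGGT

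In the chromosome 2 array the same position of the repeat was recorded in neighbouring units, and these 3 segments show it, with capitals where they differ. Their starts lay 234 and 251 bp apart.
first unit, chr2:98666647-98666695: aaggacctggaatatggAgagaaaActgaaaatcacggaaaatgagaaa
next unit, chr2:98666881-98666929: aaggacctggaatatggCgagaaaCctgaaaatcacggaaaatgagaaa
last unit, chr2:98667132-98667180: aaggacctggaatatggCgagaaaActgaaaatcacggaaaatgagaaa

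A chromosome 2 segment and a chromosome 9 segment read on the minus strand differed at only 2 bases, again in capitals.
chromosome 2, chr2:98667250-98667298: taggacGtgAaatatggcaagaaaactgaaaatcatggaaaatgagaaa
chromosome 9, minus strand, chr9:3000485-3000533: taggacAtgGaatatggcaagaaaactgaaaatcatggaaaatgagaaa

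Few reads carried most of these sites. Outside the arrays 179 of 205 records (87.3%) rested on 1 duplicated read over both libraries. A further 17 records had 2 such reads, and 9 (4.39%, 2.03 to 8.17%) had 3 or more. Median depth outside the arrays was 45 reads in normal lung and 44 in the tumor. In the arrays it was 968 and 1853 reads, and 71 of 94 records had 1 duplicated read, 9 had 2 and 14 had 3 or more. The genotype field of the tables gave the duplication to a library at 2 of the 205 records outside the arrays, both in Irak4, and at 0 of the 94 array records.

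The rule's depth limit cut through a continuous range. Outside the arrays 15 records had 15 or 16 reads in the shallower library and 21 non-members had 13 or 14. Just inside were Irak4 in the WT, with 15 and 20 reads in normal lung and tumor, and Frrs1 in the WT, with 16 and 29. Just outside were Mov10l1 in the WT, with 21 and 13 reads, and Slc11a2 in A159V, with 13 and 20.

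Outside the arrays the sites lay mostly in genes, and often in members of gene families or in predicted genes with a Gm number. A protein-coding gene span held 157 of 205 records (76.6%, 70.2 to 82.2%), another kind of gene 40, and no gene 8. The annotation used gives gene spans only, so the position within a gene was not resolved. Of the 676 shallower records without a simple repeat, 340 (50.3%, 46.5 to 54.1%) lay in protein-coding spans. Here and below these shallower records include array records, while the 205 leave the arrays out. Exons were captured and the sites chosen by depth, so this difference in shares cannot be told apart from one in coverage. Without arrays and the array-like records described below, the share was 47.6% at depth 0, 50.8% at 1 to 4 reads and 77.5% at 5 to 14. A promoter window, from 250 bases before to 50 bases after a gene's start, held 2 records. They were a WT record in the span of Zfp931, in the window of Gm35319, and an A159V record at Vmn1r135.

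Genes of a list of multigene families, picked by symbol, or predicted genes with a Gm number held 66 of the 205 records (32.2%, 25.9 to 39.1%). Families outside the list were not counted. Among the shallower records without a simple repeat they held 60 of 676 (8.88%, 6.84 to 11.3%). The 66 comprised 12 records in zinc finger genes, whose proteins bind DNA, and 12 in the vomeronasal family of pheromone receptors. These 12 include pseudogenes such as Vmn2r-ps37. The 66 further comprised 8 in the span of the immunoglobulin heavy chain locus, 3 in olfactory receptors, 2 in keratin-associated protein genes and 29 in Gm genes. Mucin and major urinary protein genes held 0. By depth in the shallower library this share was 6.22% at 0 reads, 10.2% at 1 to 4, 20.2% at 5 to 14, 9.38% at 15 to 29, 31.9% at 30 to 59 and 55.6% (42.5 to 68.1%, 35 of 63 records) at 60 reads or more, where the array-like records described below are left out. Genes of multigene families have close relatives elsewhere in the genome. The Gm genes were counted by symbol alone, which does not by itself mark a family. The part of reads from relatives in these depths was not tested.

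**Figure D1:**
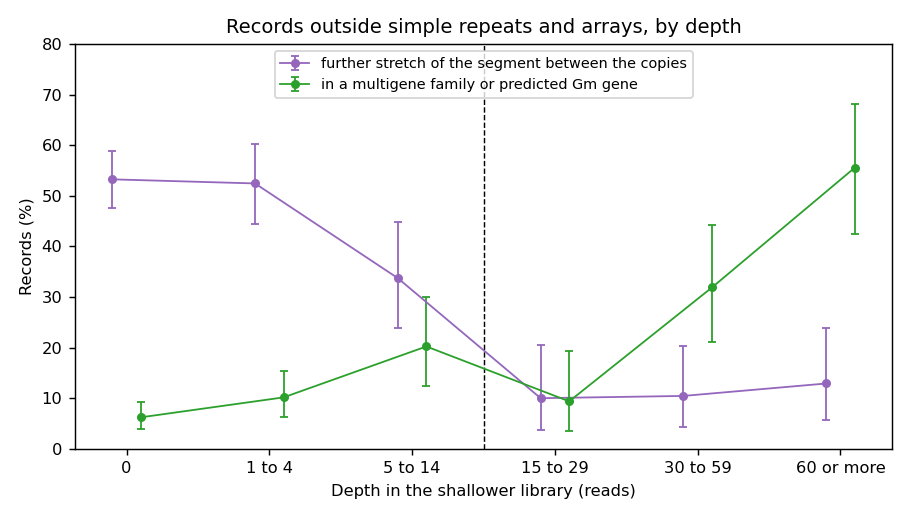
Share of records (vertical axis, %) against depth in the shallower library of the genotype (horizontal axis, reads), for records outside simple repeats and arrays and without array-like sequence. Points are shares and bars exact 95% intervals. The dashed line marks the limit of 15 reads. Records with a further stretch of the segment between the copies went from 53.3% at depth 0 to 12.9% at 60 or more reads. Records in genes of the listed families or predicted Gm genes went from 6.22% to 55.6%.

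The 6 deepest sites in coding gene spans of each genotype carried a single duplicated read each. In the WT all 6 lay in the listed families or Gm genes, and in A159V 3 of 6 did, in Vmn2r36 and at overlapping segments of Zscan18. The list does not hold every gene family, for instance that of Speer4c, so these counts do not set the genotypes apart. In the WT the deepest was in Vmn2r43, with 1 of 333 reads in normal lung (0.30%) and 0 of 329 in the tumor. Next came Gm26650, with 0 of 297 in normal lung and 1 of 268 in the tumor (0.373%). Vmn1r151 had 0 of 222 and 1 of 228, and Vmn2r40 0 of 174 and 1 of 160. In A159V the deepest was Speer4c, of a family expressed in testis, with 0 of 631 reads in normal lung and 1 of 683 in the tumor (0.146%). Vmn2r36 had 1 of 353 and 0 of 372, and Prb1, a salivary proline-rich protein gene, 1 of 175 and 0 of 206. A count of 0 among 631 reads allows a share of up to 0.475%, so even at these sites the shares of the paired libraries could not be told apart.

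Some sites in different genes carried the same insertion. Of 196 records outside the arrays and without array-like sequence, 30 shared a 12-base word with a record at least 100 bp away, in 29 pairs. The segment was identical in 8 pairs, and in 7 of these the intervening bases were identical too. The pseudogenes Vmn2r-ps37 and Gm4073 and the receptor gene Vmn2r36, spread over 368183 bp of chromosome 7, formed such a group across both genotypes. Vmn2r40 and Gm20345 in the WT formed another, 768466 bp apart. So did Gm15090 in the WT and Gm15110 in A159V, 1102737 bp apart on chromosome X. These sites were picked out after their values were seen. Whether their reads came from 1 place or several was not tested.

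The copies were rarely directly adjacent. Segments outside the arrays had a median of 42 bp (21 to 49), the intervening bases a median of 60 (0 to 69) and the whole insertion a median of 97 bp. Exact copies, with no intervening base, made up 6 of 205 records (2.93%, 1.08 to 6.26%), against 65 of 676 (9.62%, 7.50 to 12.1%) of the shallower records. In the WT they lay in Foxd4, a forkhead factor gene (42 bp), and Gm15107 (24 bp). In A159V they lay in the interferon-family pseudogene Ifi203-ps (22 bp), in Psrc1, whose protein binds spindle microtubules (41 bp), in the phosphatase subunit gene Ppp4r4 (48 bp) and in Gm15125 (24 bp). Each of the 6 rested on 1 read. The inserted length was a multiple of 3 at 91 of 205 records (44.4%, 37.5 to 51.5%), against 311 of 676 (46.0%) of the shallower records.

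The exact copies in Gm15107 and Gm15125, which lie on chromosome X, were nearly the same sequence at different offsets. With 7 bases of the Gm15125 segment moved from its start to its end, 21 of 24 bases matched, against 4 without the move. They are shown aligned with that of Ifi203-ps, a typical short exact copy. Capitals mark the differences between the first 2.
Gm15107, chrX:148202841-148202864: agaccacatcCtgacCTctcaggt
Gm15125 after the move, chrX:148726683-148726706: agaccacatcAtgacTActcaggt
Ifi203-ps, chr1:173798171-173798192: AGTTTTAGTTCTTTTCTTAGTA

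Between the copies, the inserted bases sometimes held a further stretch of the segment. Among the 198 records outside the arrays with at least 20 intervening bases, a forward stretch of 12 bases or more stood there in 21 (10.6%, 6.69 to 15.8%). It had a median length of 21 bp, and 5 of the 21 had 3 or more duplicated reads. In the shallower records without a simple repeat it stood in 293 of 603 (48.6%, 44.5 to 52.7%). The share was 53.3% at depth 0, 52.4% at 1 to 4 reads, 33.7% at 5 to 14, 10% at 15 to 29, 10.4% at 30 to 59 and 12.9% at 60 or more, so the lower share began below the limit used here. In 92 of the 205 records (44.9%) the intervening bases included unresolved letters (N). A forward stretch stood in 16 of these 92 (17.4%, 10.3 to 26.7%) and in 5 of the 106 searched records without N (4.72%, 1.55 to 10.7%), against 51.7% and 45.0% in the shallower records. In the WT record of Irak4 the intervening bases held 2 whole copies of the segment, in capitals here. Those of the A159V record included unresolved letters, and the longest forward stretch found in them was 12 bp.
Irak4, WT, intervening bases: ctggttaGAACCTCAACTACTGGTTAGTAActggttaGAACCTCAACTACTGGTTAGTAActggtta

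An inverted stretch, the reverse complement of part of the segment, stood between the copies in 12 of the 198 records (6.06%, 3.17 to 10.3%), 7 in the WT and 5 in A159V. The interval overlaps that of the shallower records, 22 of 603 (3.65%, 2.30 to 5.47%). Of the 12, 11 had fully resolved intervening bases, 11 of 106 such records (10.4%, 5.30 to 17.8%), and 1 had unresolved letters, 1 of 92 (1.09%, 0.0275 to 5.91%). The stretches were 14 to 37 bp long with a median of 27.5 bp, and 10 of the 12 began within the first 10 intervening bases. Records with such a stretch included those in Gm8922 and Gm20345 in the WT, and in Cd2bp2, a splicing protein gene, and Rbl2, which encodes a retinoblastoma relative, in A159V. At Gm8922 there were 2 of 41 duplicated reads in WT normal lung (4.88%) and 0 of 39 in the tumor. At Cd2bp2 there were 2 of 106 in A159V normal lung (1.89%) and 0 of 122 in the tumor. The other 10 records had 1 read each. The segments and intervening bases of 2 of them are shown, chosen after their values were seen, with the inverted stretch in capitals.
Gm8922, segment, chr5:11681837-11681883: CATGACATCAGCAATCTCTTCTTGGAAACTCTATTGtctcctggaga
Gm8922, intervening bases: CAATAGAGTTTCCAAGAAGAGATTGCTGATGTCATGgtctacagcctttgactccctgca
Gm20345, segment, chr7:9687234-9687279: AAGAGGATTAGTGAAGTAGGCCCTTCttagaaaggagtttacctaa
Gm20345, intervening bases: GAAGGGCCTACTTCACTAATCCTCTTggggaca

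Sites with several duplicated reads were recorded in both genotypes. A record of the other genotype started within 10 bp of 35 of the 205 records (17.1%, 12.2 to 22.9%). It did so at 158 of the 676 shallower records without a simple repeat (23.4%, 20.2 to 26.7%). Sharing as such was thus no more frequent among the members. Among the 205, a record of the other genotype stood at 18 of 179 with 1 duplicated read (10.1%, 6.07 to 15.4%). It stood at 8 of 17 with 2 (47.1%, 23.0 to 72.2%) and at 9 of 9 with 3 or more (66.4 to 100%). The 9 records lay at 6 segments, counted in each genotype in which they reached 3 reads. They are thus not independent units, which the interval does not allow for. The records formed 17 loci, of which 2 had a duplicated read in all 4 libraries, 8 in 3 and 7 in 2.

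Irak4, a kinase gene of Toll-like receptor signalling, stood apart from the rest. It carried 4 of 15 duplicated reads in WT normal lung (26.7%), 14 of 20 in the WT tumor (70.0%), 11 of 20 in A159V normal lung (55.0%) and 8 of 19 in the A159V tumor (42.1%), and the 4 intervals overlapped.

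Igh, the immunoglobulin heavy chain locus, was the other site with reads in all 4 libraries. There 1 of 30 reads in WT normal lung (3.33%, 0.0844 to 17.2%) and 4 of 51 in the WT tumor (7.84%, 2.18 to 18.9%) carried the duplication. In A159V it was 3 of 47 in normal lung (6.38%, 1.34 to 17.5%) and 3 of 40 in the tumor (7.50%, 1.57 to 20.4%), and the 4 intervals overlap. An overlapping A159V record, chr12:114804997-114805030, had 1 of 45 reads in normal lung and 1 of 38 in the tumor. Further Igh loci were recorded at chr12:116000412-116000445, with reads in the WT tumor and both A159V libraries, and at chr12:114843958-114844006, with 2 of 132 reads in the WT tumor and 0 of 82 in WT normal lung. At chr12:114835605-114835640 the single read was in WT normal lung (1 of 154), with 0 of 183 in the WT tumor, and at chr12:115623464-115623511 in the A159V tumor (1 of 203), with 0 of 198 in A159V normal lung.

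Cmya5, which encodes a large muscle protein, carried 2 of 53 reads in WT normal lung (3.77%, 0.460 to 13%) and 1 of 55 in the WT tumor (1.82%, 0.0460 to 9.72%). In A159V normal lung it carried 8 of 92 (8.70%, 3.83 to 16.4%), and in the A159V tumor 0 of 61, which allows a share of up to 4.92%. The A159V normal library was the highest of the 4, and its interval overlapped that of each other library. A second WT record with the same end, chr13:93096903-93096937, had 0 of 49 reads in normal lung and 1 of 58 in the tumor.

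The zinc finger gene Zfp984 carried 3 of 118 reads in WT normal lung (2.54%), 1 of 113 in the WT tumor (0.885%), 0 of 109 in A159V normal lung and 2 of 85 in the A159V tumor (2.35%). A second WT record there, chr4:147756200-147756235, had 1 of 116 reads in normal lung and 0 of 112 in the tumor. In Zscan18, another zinc finger gene, a 22 bp segment had 3 of 93 reads (3.23%) in normal lung of the WT and 1 of 131 in the WT tumor (0.763%). In A159V it had 1 of 127 in normal lung (0.787%) and 0 of 154 in the tumor. A 45 bp segment 12 bases further on had 0 of 98 and 3 of 135 (2.22%) in the WT libraries and 1 of 133 (0.752%) in A159V normal lung, with 0 in the A159V tumor, which allows a share of up to 1.89%. The 2 Zscan18 segments overlap and can share reads. In the WT the order of the tissues differed between them, and in A159V the single read at each was in normal lung. A further A159V record in Zscan18, chr7:12774737-12774771, had 0 of 111 reads in normal lung and 1 of 143 in the tumor.

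**Figure D2:**
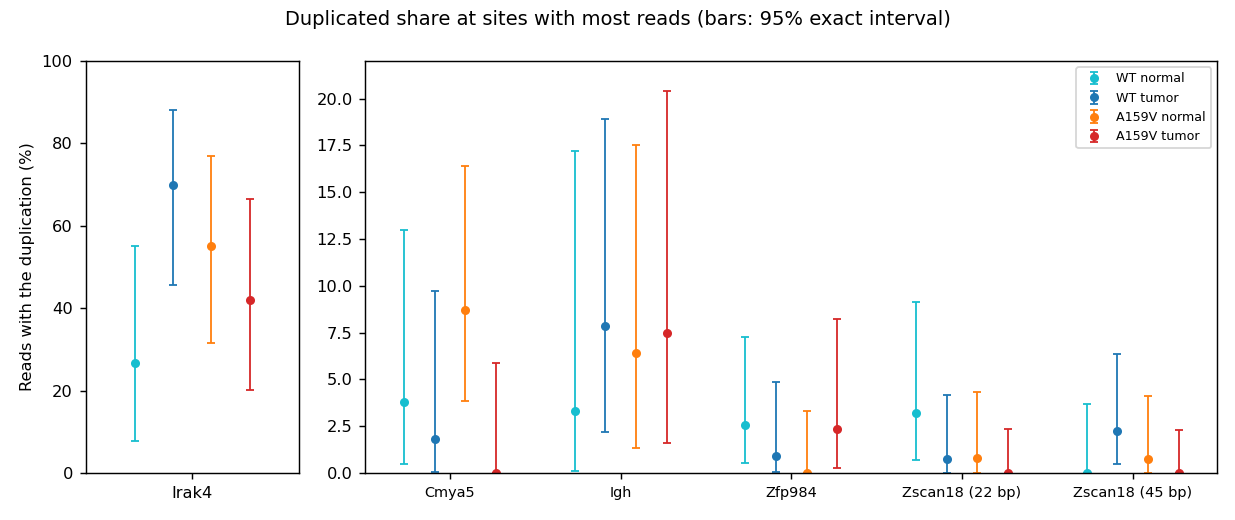
Reads with the duplication (vertical axes, % of reads at the site) at 6 segments outside the arrays with at least 3 duplicated reads in 1 genotype, on separate scales for Irak4 and for the others. Points are single libraries and bars exact 95% intervals. Irak4 lies between 26.7% and 70.0%, and the other segments between 0 and 8.70% with overlapping intervals.

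The other loci recorded in both genotypes had 1 or 2 duplicated reads in a library. Bin2, whose protein curves membranes, had 0 of 19 reads in WT normal lung, 1 of 34 in the WT tumor, 1 of 28 in A159V normal lung and 1 of 32 in the A159V tumor. Npas1, a neuronal transcription factor gene, had 1 read in 3 libraries, at 15 to 17 reads of depth. Krt13, a keratin gene of stratified epithelium, had the same recorded insertion in both tumors, with 1 of 67 reads in the WT and 1 of 60 in A159V. Both records held unresolved letters, so identity at those bases is not known. The normal libraries had 0 of 87 and 0 of 75. Sycp1, a gene of the meiotic synaptonemal complex, showed the opposite pattern, with 1 read in each normal library (depths 16 and 19) and 0 in the tumors (22 and 16). Mov10l1, a germ-line helicase gene, had 2 of 26 reads in the A159V tumor and 0 of 19 in A159V normal lung, while its WT record, just under the depth limit, had 2 of 21 in normal lung and 0 of 13 in the tumor. Single reads at such depths cannot show a difference between tissues.

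No site was called different between tumor and normal lung. Fisher's exact test, two-sided, set duplicated against reference reads, tumor library against normal library, at each record, with Benjamini-Hochberg adjustment over all 1404 records. It called 0 of 169 WT members, beside 0% of all 792 WT records, and 0 of 130 A159V members, beside 0% of all 612, and the smallest adjusted p was 1 in both. At an unadjusted p under 0.05 Fisher's exact test called 1 WT member, Irak4 (p = 0.0176), beside 0.126% of all WT records, and 1 A159V member, Cmya5 (p = 0.0220), beside 0.163% of all A159V records. These were the sole such records in their tables. The test compares 2 libraries, not conditions. Most members had 1 duplicated read, a number with which the test cannot reach 0.05 at equal depths.

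Genes of replication, repair and lung cancer held 4 of the 299 members, each with 1 duplicated read. Of all 1404 records, 6 lay in the replication and flap processing list, 11 in the lung cancer list and 8 in the DNA repair list. Of 45 replication and flap processing genes, 2 held a member, both with the read in the tumor. They were Ticrr, needed to start replication origins, with 1 of 72 reads in the WT tumor and 0 of 70 in WT normal lung, and the helicase gene Recql4, with 1 of 16 in the A159V tumor and 0 of 18 in A159V normal lung. Of 34 lung cancer genes, 1 held a member, the receptor kinase gene Erbb3, with 1 of 33 reads in WT normal lung and 0 of 35 in the WT tumor. Of 28 DNA repair genes, 1 held a member, the Fanconi anemia gene Fanci, with 1 of 36 reads in A159V normal lung and 0 of 19 in the A159V tumor.

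Summed over the sites outside the arrays, the duplicated share was 58 of 9026 reads in WT normal lung (0.643%, 0.488 to 0.830%) and 88 of 11224 in the WT tumor (0.784%, 0.629 to 0.965%). In A159V it was 78 of 12164 in normal lung (0.641%, 0.507 to 0.80%) and 59 of 12177 in the tumor (0.485%, 0.369 to 0.625%). The tumor was above normal lung in the WT and below it in A159V, with overlapping intervals in both. A record needed at least 1 duplicated read to be listed, so these are shares at listed sites and not rates over all covered sites. The A159V denominators were set in large part by 1 pseudogene site, Gm10222 on chromosome 1, in a region known as a nuclear copy of mitochondrial DNA, with 0 of 4163 reads in normal lung and 1 of 2786 in the tumor. Without it and the 9 array-like records described below, the shares in the WT were 0.858% (normal lung) and 1.26% (tumor), and those in A159V 1.18% (normal lung) and 0.828% (tumor).

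**Figure D3:**
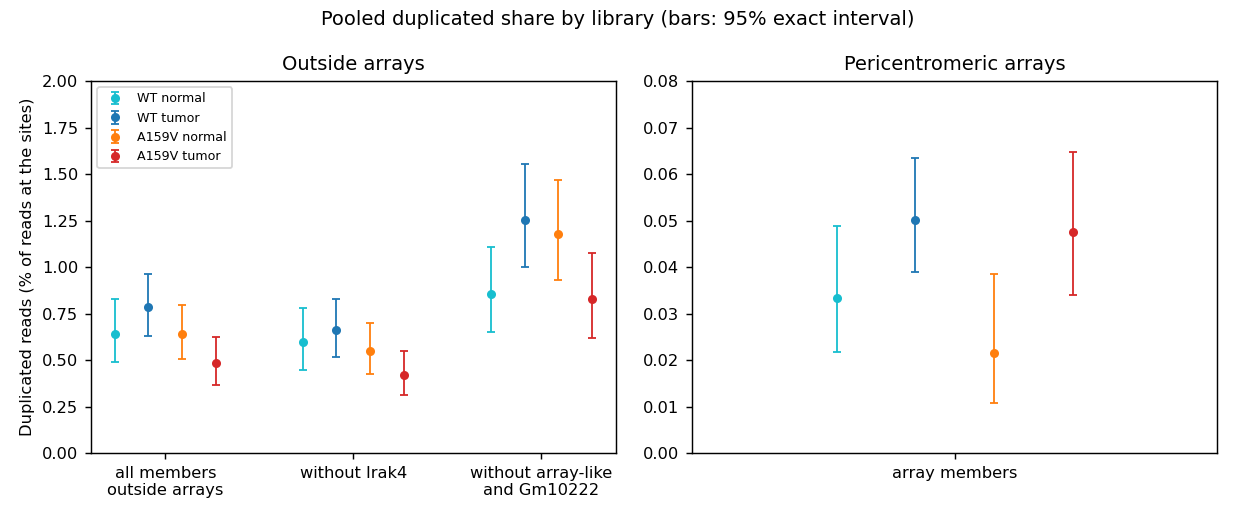
Duplicated reads as a share of all reads at the listed sites (vertical axes, %) in each library, outside the arrays with 3 choices of sites (left) and in the arrays (right, with a scale of its own). Points are single libraries and bars exact 95% intervals. Outside the arrays the WT tumor lies above WT normal lung and the A159V tumor below A159V normal lung in each choice of sites. In the arrays, pooled over their chromosomes, both tumors lie above normal lung.

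The number of sites gave the same directions when every listed record counted. Among records with at least 2 duplicated reads it did not, with a tumor to normal ratio of 1.00 (0.0725 to 13.8) in the WT and 1.33 (0.226 to 9.10) in A159V. Over every listed record, in the WT 62 sites outside the arrays had duplicated reads in the tumor alone, 41 in normal lung alone and 7 in both, a tumor to normal ratio of 1.51 (1.00 to 2.30). In A159V 38 had them in the tumor alone, 49 in normal lung alone and 8 in both, a ratio of 0.776 (0.494 to 1.21). Total reads at the same sites differed by a tumor to normal ratio of 1.24 in the WT and 1.00 in A159V. Without the array-like records that ratio of reads was 1.01 in the WT and 0.870 in A159V, and the ratios of sites were 1.45 (0.953 to 2.23) and 0.729 (0.458 to 1.15). The odds ratio of the A159V to the WT split was 0.515 (0.276 to 0.952). This interval treats sites as independent and has no replicate animal behind it, so it describes 4 libraries, and a difference between the animals or library preparations cannot be told apart from one between the genotypes.

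In the pericentromeric arrays the duplicated share was far lower, but every listed site has at least 1 duplicated read, which is a smaller share of a deeper site, so the shares in and outside the arrays are not comparable as rates. The array share was 26 of 77962 reads in WT normal lung (0.0333%, 0.0218 to 0.0489%) and 69 of 137764 in the WT tumor (0.0501%, 0.0390 to 0.0634%). In A159V it was 11 of 50934 in normal lung (0.0216%, 0.0108 to 0.0386%) and 40 of 84196 in the tumor (0.0475%, 0.0339 to 0.0647%). By chromosome, A159V had 34 duplicated reads in the tumor and 4 in normal lung on chromosome 2. It had 6 and 6 on chromosome 9, at sites with more reads in the tumor, and 0 and 1 on chromosome 14. The higher A159V tumor share thus came from chromosome 2. The WT had 48 and 16, 20 and 9, and 1 and 1, in the same order. Overlapping array records can share reads, so these sums can count a read more than once, which the intervals do not cover. Records with starts within 10 bp were then merged to the 1 with most duplicated reads. The WT shares became 0.0485% (normal lung) and 0.0572% (tumor), and the A159V shares 0.0271% and 0.0599%. Records further apart can still overlap. Sites with reads in the tumor alone outnumbered those in normal lung alone by 34 to 15 in the WT, a ratio of 2.27 (1.20 to 4.48), and by 26 to 6 in A159V, a ratio of 4.33 (1.74 to 12.9). The tumor libraries also held 1.77 times the reads of the normal libraries at these sites in the WT and 1.65 times in A159V. The odds ratio between the genotypes was 1.90 (0.592 to 6.82). These ratios of sites count each record as a unit, overlapping records included.

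The array records lay on chromosome 2 (60 records at 37 loci, 98662784 to 98667332), chromosome 9 (32 records at 27 loci, 3000347 to 3034937) and chromosome 14 (2 records), none of them in an annotated gene. Their segments were long and uniform, with a median of 47 bp, and the intervening bases a median of 68. Their median GC content was 37%, against 46.7% outside the arrays. Of the 94, 93 had a 12-base word of the array reference alleles, on either strand, in their intervening bases. Among neighbouring occurrences of a 12-base word on chromosome 2, the most frequent spacings were 234 bp (107 of 319 pairs), 251 bp (89) and 485 bp (41), as between the units printed above. On chromosome 2, 24 of the 60 records ended at the same base as another record of their genotype, and 12 starts were recorded in both genotypes.

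The array site with most reads in the WT, chr9:3000485-3000533, had 1 of 1314 reads in normal lung (0.0761%) and 5 of 2540 in the tumor (0.197%). In A159V the same segment had 2 of 971 (0.206%) and 1 of 1809 (0.0553%), the opposite order. At chr2:98666985-98667033 the WT had 0 of 1690 reads in normal lung and 4 of 2878 in the tumor (0.139%), and A159V had 0 of 1268 and 5 of 2150 (0.233%). At chr2:98666881-98666929, printed above, the WT had 0 of 1848 and 4 of 3385 (0.118%), and at chr2:98667250-98667298, also printed, A159V had 0 of 1244 and 4 of 2382 (0.168%). Other chromosome 2 sites had reads in both tissues. At chr2:98666607-98666652 the WT had 2 of 1166 in normal lung (0.172%) and 3 of 2407 in the tumor (0.125%). At chr2:98666884-98666929 the WT had 1 of 1849 (0.0541%) and 4 of 3385 (0.118%), while A159V had 2 of 1398 (0.143%) and 2 of 2452 (0.0816%). The order of the tissues thus differed among the array sites with most reads. A record of the other genotype started within 10 bp of 49 of the 94 array records (52.1%, 41.6 to 62.5%), but the inserted sequence was identical in 0 of them. Outside the arrays it was identical in 7 of the 35 such records, or 7 of 205 in all (3.41%, 1.38 to 6.91%). Array records stand close together, with the 24 A159V records on chromosome 2 between 98666265 and 98667332. Some starts can therefore fall within 10 bp by position alone, and the share to expect was not computed. Identity requires every letter to match, unresolved letters included. Such letters stood in 46 of the 94 array records (48.9%) and, at a similar share, in 92 of the 205 outside the arrays (44.9%).

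Beyond the 3 array windows, 9 records outside them were built of the same sequence, with at least 50% of the 12-base words of their reference allele shared with array records. They lay on chromosome 12 near 3.11 Mb, where no gene is annotated, and in the long noncoding RNA gene Gm33838 on chromosome 9. They were found after the values were seen, and 3 of their segments are printed with shared words in capitals.
chromosome 12, chr12:3109874-3109921: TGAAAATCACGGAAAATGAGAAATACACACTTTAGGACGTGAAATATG
Gm33838, first, chr9:35305350-35305397: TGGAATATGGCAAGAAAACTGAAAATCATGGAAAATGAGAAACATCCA
Gm33838, next, chr9:35305428-35305475: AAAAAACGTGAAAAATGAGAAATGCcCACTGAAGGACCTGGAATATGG

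Depth at these 9 records was also that of an array. The 5 WT records had a median tumor to normal depth ratio of 1.82 (1.78 to 2.40) and the 4 A159V records 2.0 (1.77 to 2.19). In the arrays the median was 1.95 (1.52 to 3.39) in the WT and 1.78 (1.18 to 2.58) in A159V. At the other autosomal sites it was 1.03 (0.55 to 2.35, 100 sites) in the WT and 1.00 (0.528 to 1.55, 87 sites) in A159V, where the values in parentheses are the lowest and highest. All 94 array records had more reads in the tumor library. Whether the tumors held more of this DNA or their libraries captured more of it was not tested.

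Sites on chromosome X had fewer reads in the tumor libraries, an observation made after the values were seen. The 5 WT sites, in Ssxb2, Gm14710, Cldn34c1, Gm15107 and Gm15090, had tumor to normal depth ratios of 0.360 to 0.634 with a median of 0.488. The 3 A159V sites, in Btbd35f12, Gm15110 and Gm15125, had ratios of 0.490 to 0.693 with a median of 0.646. The single mitochondrial site, in mt-Rnr1 in A159V, had 0 of 63 reads in normal lung and 1 of 48 in the tumor, a depth ratio of 0.762. Of the autosomal sites, 2 of 100 in the WT and 7 of 87 in A159V were at or below the highest ratio on X. The sex of the animals is not given in the sources used here, and its part in these ratios was not tested.

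**Figure D4:**
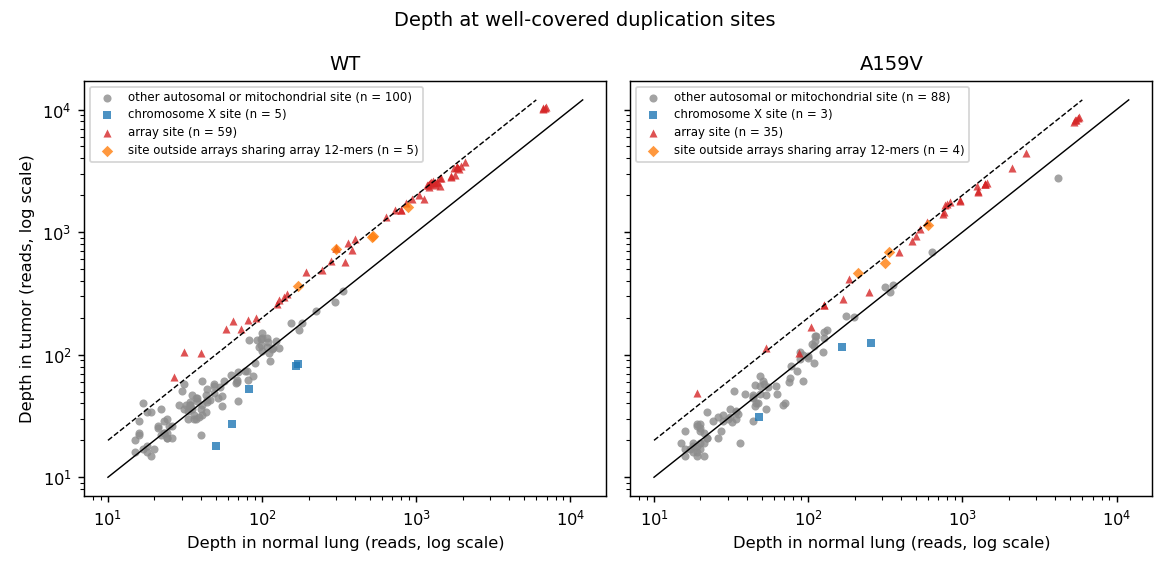
Reads in the tumor (vertical axis, log scale) against reads in normal lung (horizontal axis, log scale) at each of the 299 sites, WT on the left and A159V on the right. The solid line marks equal depth and the dashed line 2 times the depth in the tumor. Array sites and array-like sites lie near the dashed line, with medians from 1.78 to 2.0, other autosomal sites, drawn with the 1 mitochondrial site, near the solid line, and the 8 X sites below it.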

How the data were processed

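Per the labels' protocols, proteinase K digestion and phenol/chloroform extraction gave the genomic DNA, and exon capture preceded library preparation. Per the file headers, tandem duplications were called with Pindel on GRCm38. BWA and the builds mm10 and GRCm38 are named in the submitters' processing notes. For both tools the version is not given in the sources used here, nor is any filter. The deposited values are, per the file headers, counts of reads supporting the reference and the duplicated allele, used as deposited. Depth is their sum.

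Python 3.11.15, numpy 2.4.6 and scipy 1.17.1 were used. Genes were assigned by overlap with RefSeq gene spans on GRCm38 (49997 genes). Shares carry Clopper-Pearson intervals and ratios of counts exact conditional binomial ones, at 95%. They cover counting error only. No molecular identifiers are described, so several reads can stem from 1 molecule. Where a library had 0 duplicated reads, the limit is 3 reads of its depth. Fisher's exact test ran on all 1404 records and was checked on simulated data. The simulated duplicated shares were far above those of most members, so that check does not cover sites with 1 duplicated read.

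The planned test per site assumed read counts, and the columns held them beside a genotype string. Named sites were those with at least 3 duplicated reads, those recorded in both genotypes (at most 10 loci), the smallest p (4 per genotype), the deepest in coding spans (6), the array sites with most reads (4), members of gene lists and sites at the depth limit. Others are marked as chosen after their values were seen or illustrate a count. The sites and lists were chosen with earlier results of these data known. Alternatives changed the depth limit, the repeat rule, the minimum of duplicated reads, merging of records, the p adjustment and the left-out sites.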

Additional observations from a re-analysis of the deposited data

Results flagged for a closer look

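The tumor to normal ratio of sites outside the arrays was above 1 in the WT (1.51) and below 1 in A159V (0.776), which are opposite directions under the same contrast, with 1 library in each group. The difference was not tested over animals. The exact interval of the odds ratio between them, 0.276 to 0.952 around 0.515, rests on sites as units. With at least 2 duplicated reads the ratios were 1.00 in the WT and 1.33 in A159V, so the opposite directions were not seen there.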

How the results depend on the processing

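No paired analysis was possible because the labels carry no replicate numbers and each group has 1 library. Of 128 recomputed values for 20 results, 96 stayed within their interval or within 1.5 times the count, and 32 moved further. Among those 32 the A159V ratio of sites crossed 1 and the WT ratio came to 1.00, both with at least 2 duplicated reads. Requiring at least 2 duplicated reads left 11 WT and 15 A159V records outside the arrays and 17 and 6 in them. It set the ratio of sites to 1.00 (0.0725 to 13.8) in the WT and 1.33 (0.226 to 9.10) in A159V, the share recorded in the other genotype to 63.6% and 66.7%, and exact copies to 0 in both. It set the pooled shares outside the arrays to 2.93% (normal lung) and 3.67% (tumor) in the WT, to 2.33% and 1.49% in A159V, and in the arrays to 0.0591%, 0.118%, 0.0777% and 0.142% in the same order. A minimum depth of 30 reads left 62 A159V records and pooled shares of 0.470%, 0.545%, 0.420% and 0.306%. The stricter repeat rule gave A159V shares of 0.895% and 0.644%. Alternatives added after the data were seen gave 0.858% and 1.26% in the WT without array-like records, 0.975% in A159V normal lung without the Gm10222 site, and 1.18% and 0.828% in A159V without both. The cause of these moves was not tested beyond the records left out. At the median depth of about 45 reads, 1 duplicated read is the least that can be listed, so rarer duplications were not detectable.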
